A study of Homo sapiens and Mus musculus with 16 samples.

Results

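Accessible regions were examined at the loci of 9 Krüppel-like factor genes, KLF2, KLF3, KLF4, KLF5, KLF6, KLF7, KLF9, KLF10 and KLF13. Each locus was taken as the gene and the 50 kb flanking it at either end, on hg38 for human cells and on mm10 for the mouse orthologs. The loci held 103 of the 118107 regions of the control (Cas9) list and 86 of the 97047 regions of the HNF4G-KO list. They held 91 of the 68074 regions of the KPC primary tumor list and 103 of the 80843 regions of the KPC mets list.

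The data came from ATAC–seq, an assay of open chromatin by transposase cutting, on 16 samples in 4 groups of 4 replicates. Control (Cas9) and HNF4G-KO cells were both HPAF-II, an established human pancreatic adenocarcinoma line grown with serum, in MEM by the labels and in DMEM by the study's methods. Both groups had gone through CRISPR–Cas9, and the knockout, of the nuclear receptor gene HNF4G, was a pool of single-cell clones. The KPC groups were untreated mouse pancreatic cancer lines labelled wild type and grown in DMEM with serum, 1 from a primary tumor and 1 from matched liver metastases (mets), so the tumor site and the cell line cannot be told apart. Each group was deposited as 1 list that covers its 4 replicates, without values for the single replicates or read depths, so that no difference below has a replicate check. The lists give no reads, so the edit at HNF4G could not be checked here. All 6 pancreatic epithelial markers examined had a region within 1 kb of a start site in both HPAF-II lists, and 5 of 6 did in both KPC lists, where Cldn4 did not. Of the leukocyte-defining genes, PTPRC and CD3E had none in any list, and the hepatocyte gene ALB had none either. The endothelial genes Pecam1 and Kdr had one in both KPC lists, and their part in the results was not tested.

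Krüppel-like factors are zinc finger proteins that bind GC-rich and CACCC-type DNA, and the family is read in groups by partner protein. KLF2, KLF4, KLF5, KLF6 and KLF7 act largely as activators, KLF3 represses through the corepressor CtBP, and KLF9, KLF10 and KLF13 recruit the corepressor Sin3A. In epithelium, KLF4 is known for differentiation and KLF5 for proliferation. HNF4G is a nuclear receptor that binds the same sequence as HNF4A, and FOXA1 is a forkhead factor that opens chromatin at endodermal enhancers.

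The sequences below are examples of family, forkhead or HNF4 letters inside accessible regions of the KLF loci. Other regions of these loci held such letters too, among them HNF4 matches at Klf3 and Klf13 in both KPC lists. A region downstream of KLF3 held the KLF consensus (GGGCGTGGC or GGGTGTGGC, either strand) at a pair of positions 54 bp apart, and so did its mouse counterpart. Capitals mark the KLF consensus, and in the mouse sequence also a FOXA consensus (TGTTTAC, either strand). The human window is chr4:38728637-38728779 (hg38, plus strand) and the mouse window is chr5:64864793-64864935 (mm10, plus strand), both intergenic, and the human region lay nearer to the start of TLR10 (46971 bp) than to that of KLF3. Of the aligned bases, 124 of 142 (87.3%) were the same.
KLF3 downstream, human: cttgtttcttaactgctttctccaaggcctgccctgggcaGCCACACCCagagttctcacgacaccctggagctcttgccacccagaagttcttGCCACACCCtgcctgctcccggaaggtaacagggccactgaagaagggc
Klf3 downstream, mouse: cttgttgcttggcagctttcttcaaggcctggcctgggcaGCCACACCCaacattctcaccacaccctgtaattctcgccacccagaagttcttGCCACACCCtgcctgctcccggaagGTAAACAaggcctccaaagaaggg
Upstream of KLF4, human chr9:107504650-107504756 and mouse chr4:55541501-55541607 shared 96 of 107 bases (89.7%), with the FOXA consensus in capitals at the same place. Both are printed on the minus strand, which is the strand of the gene, and both are intergenic.
KLF4 upstream, human: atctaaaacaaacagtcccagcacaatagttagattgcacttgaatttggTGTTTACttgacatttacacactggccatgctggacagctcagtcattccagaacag
Klf4 upstream, mouse: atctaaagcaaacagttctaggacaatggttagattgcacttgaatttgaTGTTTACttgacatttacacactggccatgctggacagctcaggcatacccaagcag
Upstream of KLF5 lay the single control region of these loci with the HNF4 consensus (CAAAGTCCA, either strand), at chr13:73045174-73045282 (hg38, plus strand). The mouse locus held it upstream of Klf5 in 2 regions, at chr14:99285437-99285545 inside a tumor region and at chr14:99281169-99281277 inside a mets-only region (mm10, plus strand). Capitals mark the consensus. The tumor region met a mets region that began past the consensus and did not hold it. The human window and the first mouse window were the same at 64 of 104 aligned bases (61.5%), but the whole human region gave no alignment of at least 100 bp to the mouse locus.
KLF5 upstream, human: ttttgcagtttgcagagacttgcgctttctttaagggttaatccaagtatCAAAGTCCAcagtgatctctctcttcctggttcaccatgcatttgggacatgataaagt
Klf5 upstream, tumor region: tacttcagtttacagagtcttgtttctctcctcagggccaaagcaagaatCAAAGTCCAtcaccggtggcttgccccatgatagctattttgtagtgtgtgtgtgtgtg
Klf5 upstream, mets-only region: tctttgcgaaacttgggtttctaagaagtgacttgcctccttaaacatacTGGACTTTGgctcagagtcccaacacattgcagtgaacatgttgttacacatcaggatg

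The first question was whether the KLF loci lost or gained regions with HNF4G-KO. Of the 103 control regions, 23 (22.3%, Wilson 95% interval 15.4 to 31.3) had no base in common with an HNF4G-KO region and are called control-only. The share over all control regions was 25.0%. Of the 86 HNF4G-KO regions, 5 (5.81%, 2.51 to 12.9) were KO-only, against 6.76% of the whole list. Both shares at the KLF loci were thus near those of the list. The intervals cover counting error only, and neighboring regions of a gene are not independent.

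In the KPC pair the question was the same for mets against the primary tumor. Of the 91 tumor regions, 8 (8.79%, 4.52 to 16.4) were tumor-only, against 8.51% of the list. Of the 103 mets regions, 18 (17.5%, 11.3 to 25.9) were mets-only, against 20.2% of the list. These shares too were near the list's own. In bulk chromatin, a region open in fewer cells and a region less open in every cell cannot be told apart.

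The regions in one list were weak ones. The deposited score has no stated scale, so each region was given its percentile rank by score within its own list. All 23 control-only regions were in the lower 50% of the control list, where 51 KLF-locus regions lay (45.1%, against 48.2% of all regions there). None of the 52 in the upper 50% was control-only, which allows a share of up to 5.77%, and 1.86% of all regions there were. For the HNF4G-KO list the lower 50% gave 5 of 38 (13.2%, against 13.5%) and the upper 50% 0 of 48, which allows up to 6.25% (0.0556% of the whole upper 50%). Tumor-only regions were 8 of 46 in the lower 50% (17.4%, against 16.5%) and 0 of 45 in the upper 50%, which allows up to 6.67% (0.503% of the whole). Mets-only regions were 17 of 47 in the lower 50% (36.2%, against 36.3%) and 1 of 56 in the upper 50% (1.79%, against 4.17%). The median width of control-only regions at the KLF loci was 281 bp, against 663 bp for shared ones.

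The 1 mets-only region in the upper 50% lay 26390 bp upstream of the Klf13 start, at chr7:63965085-63965526 (mm10). It was 442 bp wide, lay in an intron of the noncoding gene Gm45052 and ranked at percentile 54.6. The nearest tumor region was 25104 bp away.

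**Figure D1:**
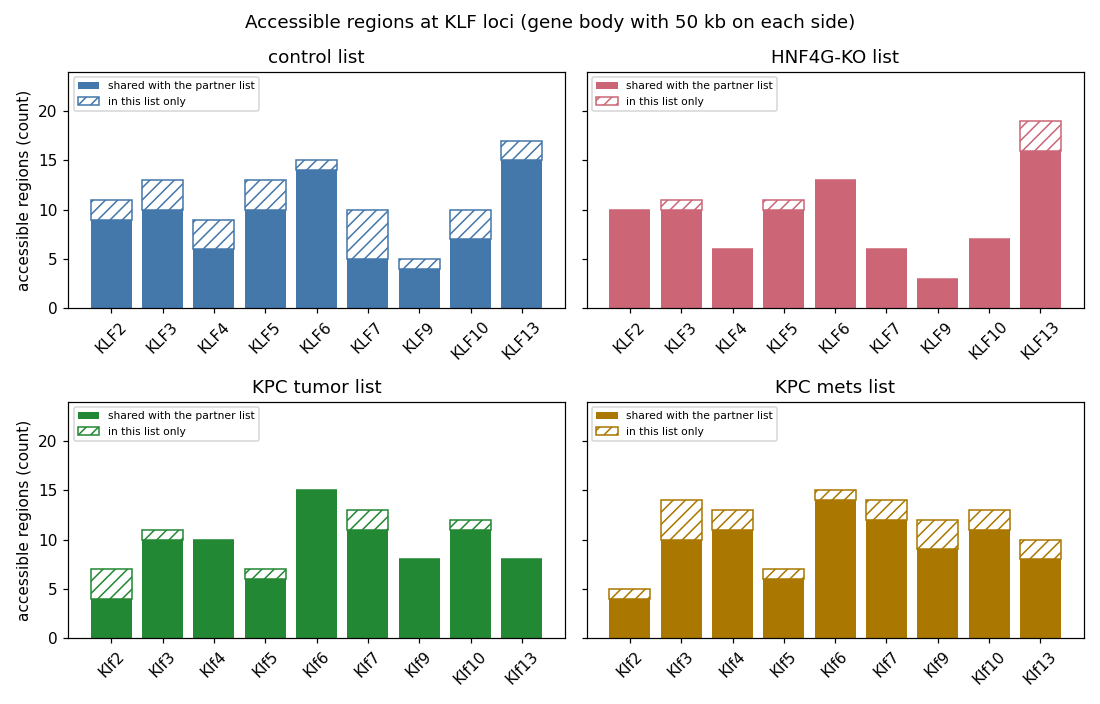
Number of accessible regions at each KLF locus (x axis, gene; y axis, count) in the control, HNF4G-KO, KPC tumor and KPC mets lists, with filled bars for regions shared with the partner list and hatched bars for regions in that list only. KLF6 kept 14 of 15 control regions while KLF7 kept 5 of 10, and Klf9 rose from 8 regions in the tumor list to 12 in the mets list. Of all control regions, 18.5% were control-only on chromosome 10 (KLF6) and 29.4% on chromosome 2 (KLF7).

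The genes differed in how many regions they held. Per 100 kb of window, KLF6, a broadly expressed factor known as an early response gene, had the densest locus, with 13.7 regions in control cells, more than at 91.2% of protein-coding genes. Klf6 had 13.8 regions per 100 kb in both KPC lists. KLF9, known as a target of glucocorticoid and thyroid hormone, was the sparsest in control cells at 3.84 per 100 kb, with 5 regions of which 1 was control-only. KLF7, a factor of neuronal growth, had 10 control regions, and 5 of them (percentiles 5.44 to 35.5) were control-only. Control-only regions were 2 of 11 at KLF2, 3 of 13 at KLF3, 3 of 9 at KLF4, 3 of 13 at KLF5, 3 of 10 at KLF10, 1 of 15 at KLF6 and 2 of 17 at KLF13. KLF13 was the only one of the 9 with more regions in the HNF4G-KO list (19) than in the control list (17), and 3 of the 5 KO-only regions were there, at percentiles of 2.35, 10.2 and 21.4.

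In the KPC lists, 3 of the 8 tumor-only regions were at Klf2, a factor known from quiescent T cells and endothelium, which went from 7 regions in the tumor list to 5 in the mets list. On mouse chromosome 8, where Klf2 lies, 14.5% of all tumor regions were tumor-only, against 8.51% of the whole list. Klf3 held 4 of the 18 mets-only regions and Klf9 held 3, while Klf4, Klf7, Klf10 and Klf13 held 2 each. Klf2, Klf5 and Klf6 held 1 each. Tumor and mets counts therefore differed by at most 4 regions at any of these genes.

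Regions over start sites were then followed in both pairs. The highest-ranked region over an annotated start site was shared with the partner list at every member that had one, and KLF9 in HPAF-II was the only locus without one, since its nearest control region ended 126 bp inside the gene. Most of these regions ranked in the upper 50% of their list. There, regions in one list were rare, at 1.86% of all in control and 0.503% in tumor. Sharing was thus likely from the choice of the highest region. Weak regions over further starts of KLF7 (percentile 16.1) and Klf5 (0.718) were control-only and tumor-only. From control to HNF4G-KO the percentile was 70.0 and 68.4 at KLF2, 70.1 and 63.3 at KLF4, and 83.6 and 78.4 at KLF5. These 3 ranked lower in the knockout. The KLF4 region was centered 2104 bp inside the gene. A KLF4 region centered 386 bp from the gene start, over a start only in HNF4G-KO, went from 30.3 to 51.4. At KLF3 it was 75.5 and 80.9, and at KLF7 it was 93.0 and 93.8. At KLF6 it was 50.1 in control and 65.0 in HNF4G-KO, where the control region met 2 regions, one of 588 bp at 65.0 and one of 244 bp at 28.6. At KLF10, a gene induced by TGF-β, it was 66.8 and 82.7, and at KLF13 74.3 and 85.9. These 3 of 8 regions ranked at least 10 percentile points higher, as 8.46% of all shared regions over a protein-coding start site did, for which the median change was -0.62 points. With 8 regions the interval on that share ran from 13.7% to 69.4%.

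In KPC cells the percentiles of tumor and mets were 38.0 and 55.3 at Klf6, 61.8 and 72.2 at Klf10, 67.3 and 79.2 at Klf13, and 49.2 and 59.9 at Klf9. These 4 of 9 start-site regions ranked at least 10 points higher in mets, against 16.4% of all shared start-site regions (interval on the 4 of 9, 18.9% to 73.3%). Klf7 went from 77.1 to 86.1, Klf5 from 82.6 to 86.4, Klf2 from 87.4 to 88.7 and Klf3 from 56.6 to 57.9. Klf4 alone ranked lower: its start lay in 1 tumor region at 30.5, which met 2 mets regions, one over the start at 8.25 and a longer one just upstream at 26.8. At KLF6, the human region that ranked at least 10 points higher aligned to the mouse region that did so. At the KLF10 and KLF13 genes, the human and mouse regions were at different starts. The human KLF10 region aligned to a Klf10 region over another start, which went from 43.3 to 30.4, and the human KLF13 region aligned to that at the first Klf13 start, at 53.5 and 62.6. The human region over the first KLF10 start ranked at 63.6 and 68.5.

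**Figure D2:**
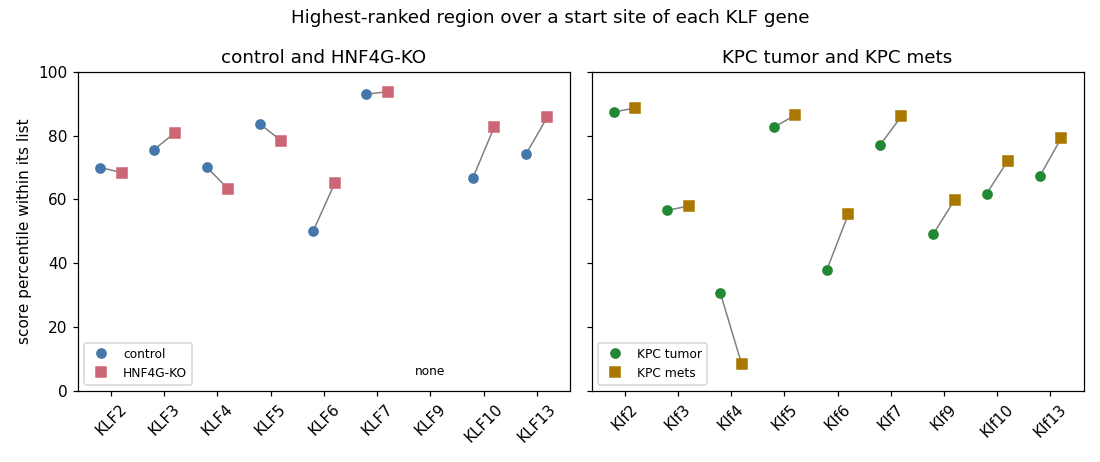
Score percentile within its list (y axis) of the highest-ranked region over a start site of each KLF gene (x axis), control (circles) and HNF4G-KO (squares) on the left and KPC tumor (circles) and KPC mets (squares) on the right; lines join the lists of a pair and "none" marks KLF9, which had no such region in HPAF-II. KLF6 moved from 50.1 to 65.0, Klf6 from 38.0 to 55.3 and Klf4 from 30.5 to 8.25, while the mets region with the longest overlap at Klf4 ranked at 26.8.

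Because start-site regions of KLF6 and KLF13 ranked higher in HNF4G-KO, the bases before their RefSeq starts (GRCh38.p14) are printed, with the GC box (GGGCGG, either strand), a site bound by the SP and KLF family, in capitals. A GC box was in the 250 bases before 6 of 11 RefSeq starts of 7 of these genes, and in 42.6% of the 35116 starts of that table. The KLF consensus was in none of the 11 and in 3.19% of all. The KLF6 window is chr10:3785282-3785459 (minus strand, without 72 bases annotated as UTR) and the KLF13 window is chr15:31326585-31326834 (plus strand).
KLF6 promoter: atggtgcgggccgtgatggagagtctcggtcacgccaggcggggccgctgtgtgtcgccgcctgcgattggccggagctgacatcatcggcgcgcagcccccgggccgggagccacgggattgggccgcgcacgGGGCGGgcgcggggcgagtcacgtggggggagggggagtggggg
KLF13 promoter: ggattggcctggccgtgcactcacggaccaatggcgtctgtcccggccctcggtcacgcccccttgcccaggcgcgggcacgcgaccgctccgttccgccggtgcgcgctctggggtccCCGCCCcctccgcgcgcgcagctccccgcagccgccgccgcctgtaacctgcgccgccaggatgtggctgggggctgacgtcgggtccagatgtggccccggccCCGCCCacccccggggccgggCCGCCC

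Ranks of the shared regions were then compared across each locus. From control to HNF4G-KO the median change over 80 shared regions was -4.52 points (quartiles -13.3 and 4.17), and over all shared regions it was -4.65. A fall of at least 10 points was seen at 25 of 80 (31.2%), against 33.6% of all. A rise of at least 10 points was seen at 12 of 80 (15.0%, 8.79 to 24.4), against 7.75% of all. Some rises came with regions joined in 1 list: among regions that paired 1 to 1 the rises were 8 of 71 (11.3%), against 6.53% of all such pairs.

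KLF6 had the highest median of the 9 genes, and the only positive one on this ranking. Its 14 shared regions had a median change of +4.77 points and 4 of them ranked lower, whereas at KLF2 all 9 ranked lower (median -3.25). With 1-to-1 pairs the KLF6 median was 2.69 over 10 regions. These signs depend on the ranking: among shared regions only, the median over all 80 was 1.79, 4 of the 9 genes had a positive median (8.77 at KLF6, 2.73 at KLF7, 1.52 at KLF4 and 0.211 at KLF13), and 5 of the 9 KLF2 regions ranked lower. KLF6 lies on a chromosome where ranks fell less, since the median of all 4180 shared regions of chromosome 10 was -1.62. The other medians were -7.17 at KLF3, -6.29 at KLF4, -4.03 at KLF5, -4.33 at KLF7, -3.62 at KLF9, -5.55 at KLF10 and -6.94 at KLF13. For KLF3 the median on its chromosome 4 was -9.88.

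The largest falls lay away from start sites. The region at chr15:31441526-31441832, beyond the end of KLF13, went from percentile 37.4 to 6.36, and one at the end of the gene, chr15:31435354-31435826 in a noncoding exon, from 57.4 to 28.0. A region just downstream of KLF3, chr4:38702045-38702753, went from 58.8 to 29.5. In KLF2's window, chr19:16376711-16377010 went from 48.7 to 20.0, but it lay in an intron of EPS15L1 and nearer to that gene's start. In the first intron of KLF5, chr13:73056020-73056485 went from 73.3 to 46.9. The KLF5 upstream region with the HNF4 consensus printed above, chr13:73045064-73045580, went from 54.3 to 31.3, a fall of the same order.

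The largest rise, at KLF9 (chr9:70412736-70413345, in a coding exon), was from 33.0 to 83.5, but 1 HNF4G-KO region spanned both this region and the one beside the start (chr9:70413664-70414531, percentile 90.4), so the pair does not compare like with like. An intronic KLF7 region, chr2:207135203-207136032, went from 33.9 to 58.0. At KLF6, chr10:3782548-3782792, in an intron, went from 9.77 to 31.5. Another KLF6 region, chr10:3774986-3775236, went from 24.4 to 46.5, where 1 HNF4G-KO region spanned 3 control regions. At KLF4, chr9:107489807-107490385 went from 30.3 to 51.4. It began 38 bp from a start, which its HNF4G-KO partner covered. The start-site region of KLF4 that ranked lower lay further inside the gene.

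From KPC tumor to mets the median change over 83 shared regions was 4.44 points (quartiles -1.49 and 14.0), and over all shared regions it was 3.67. Rises of at least 10 points numbered 30 of 83 (36.1%), against 30.8% of all, and falls 5 of 83 (6.02%), against 12.4%. By gene, the medians were 9.68 at Klf9, 9.04 at Klf6, 8.99 at Klf7, 6.22 at Klf13, 6.06 at Klf3, 3.34 at Klf5, 3.16 at Klf4, 1.83 at Klf10 and -3.89 at Klf2. Klf2 was the only gene with a negative median, over 4 regions. On mouse chromosome 13, where Klf6 lies, all 2747 shared regions had a median of 7.40, near the Klf6 value, and on the Klf2 chromosome the median was -0.194.

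**Figure D3:**
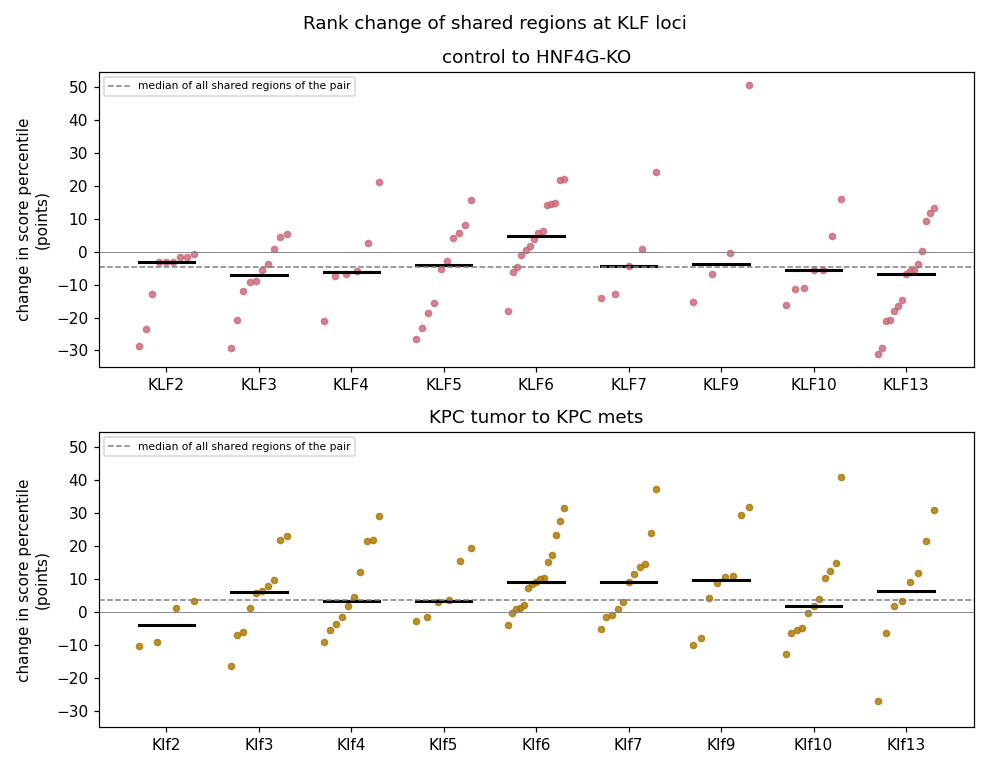
Change in score percentile, in points (y axis), of each shared region (points) at each KLF gene (x axis), from control to HNF4G-KO (top) and from KPC tumor to KPC mets (bottom), with the gene median (black bar) and the median of all shared regions of the pair (dashed line). The KLF6 median, 4.77, is the only positive one in the top panel on this ranking and the Klf2 median, -3.89, the only negative one in the bottom panel.

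The largest rise in mets was at Klf10 (chr15:38254047-38254306, nearer to the start of Odf1), from percentile 11.6 to 52.7. Klf7 chr1:63998870-63999244 went from 9.17 to 46.5 and Klf9 chr19:23151599-23151838, in an intron, from 9.05 to 40.8. Klf6 chr13:5845023-5845936 went from 53.6 to 85.2, where 1 mets region spanned 2 tumor regions. Klf13 chr7:63905209-63905534, in an intron and nearer to the start of E030018B13Rik, went from 39.3 to 70.1. The largest falls were at Klf13 (chr7:63858518-63859134, nearer to E030018B13Rik), from 38.5 to 11.4, at Klf3 (chr5:64795751-64796258, 7384 bp upstream), from 89.0 to 72.5, and at Klf10 (chr15:38298844-38299763, over a start site), from 43.3 to 30.4. Smaller falls were at Klf2 (chr8:72281556-72282084, nearer to Gm10282), from 76.4 to 66.1, and Klf9 (chr19:23091594-23092180), from 75.8 to 65.7. The rises named here were larger than the falls, in a pair where all shared regions had a median change of 3.67 points.

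Regions at percentile 90 or more can rise by at most 10 points. The 12 such shared regions of the control list changed by -12.0 to 3.82 points in HNF4G-KO (median -1.77, against -1.25 for all such regions), and the 10 of the tumor list by -5.17 to 7.29 in mets (median 1.04, against -0.0514). The lowest change was at the strongest KLF3 region, in an intron at chr4:38687491-38688070, from 91.9 to 80.0. At KLF6, chr10:3754762-3755849, 29976 bp past the start, ranked at 98.8 in control and 99.2 in HNF4G-KO. At KLF13, chr15:31465044-31466065 ranked at 98.3 in both. At KLF5, chr13:73090031-73090870, 35474 bp past the start and beyond the gene, ranked at 93.2 and 90.4. In KPC cells Klf6 chr13:5837116-5837845 ranked at 98.4 and 99.7, Klf13 chr7:63851642-63852541 at 98.0 and 99.7, and Klf5 chr14:99324273-99325148, 26019 bp past the start, at 95.8 and 93.0. Klf6 chr13:5886778-5887380 went from 90.2 to 97.5. These regions were named after their values were seen.

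Regions were also compared between species by aligning each control region to the mouse window of the same gene. Of 103 regions, 47 aligned over at least 100 bp and 32 of these fell on a region of a KPC list. All 10 regions over a start site did, and of the 93 others 37 aligned and 22 fell on a KPC region. The same shares over all control regions were not computed, so these counts show no trait of the KLF loci. KLF6 gave the most, with 10 of 15 aligned and 9 on a KPC region. Its region at 29976 bp aligned at 31477 bp past the mouse start, and that region ranked at 94.1 in the tumor list and 96.2 in mets. Its region at 22002 bp, which holds the KLF consensus in both species, aligned at 25603 bp, where percentiles were 90.2 and 97.5, against 67.8 in control and 82.0 in HNF4G-KO. A KLF6 region 40257 bp upstream ranked at 94.8 in control cells while its mouse counterpart ranked at 7.81 in the tumor list and 35.5 in mets.

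The printed KLF3 and KLF4 windows lay in such paired regions. The KLF3 region 64583 bp past the start ranked at 91.7 in control and 82.5 in HNF4G-KO, and its counterpart 61646 bp past the Klf3 start ranked at 66.0 in the tumor list and 75.8 in mets. The KLF4 region 14351 bp upstream ranked at 90.1 and 92.7, and its counterpart 9203 bp upstream of Klf4 at 78.7 and 83.1. The KLF5 upstream HNF4 windows were weak in mouse, at percentile 5.83 for the tumor region and 5.68 for the mets-only one. The KLF5 intronic region that fell to 46.9 aligned to mouse over 490 bp but met no KPC region. Alignments were not checked for gene order, and a short one can join unrelated repeats.

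**Figure D4:**
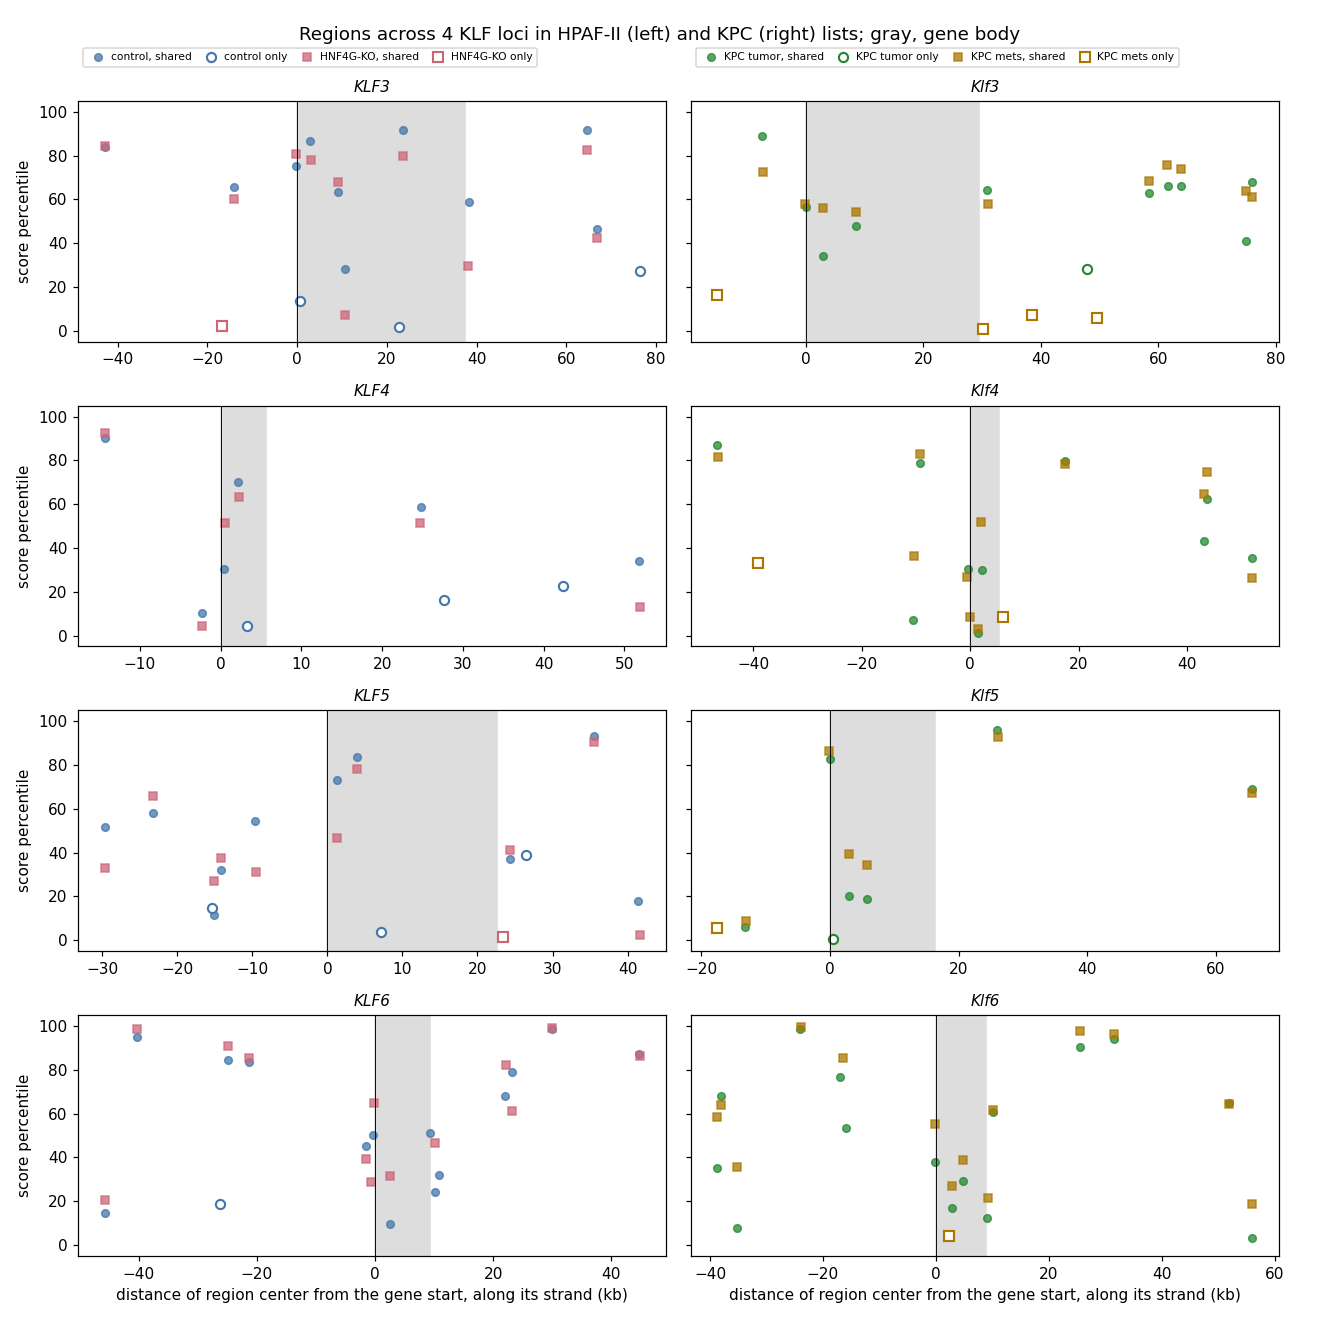
Score percentile (y axis) of every region at KLF3, KLF4, KLF5 and KLF6 (rows) against the distance of its center from the gene start along the gene's strand in kb (x axis), for HPAF-II (left: control circles, HNF4G-KO squares) and KPC (right: tumor circles, mets squares). Open symbols are regions in one list and gray is the gene body; the KLF6 region at 98.8 in control and the Klf6 region at 94.1 in tumor sit at like distances past the start.

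Gene order by number of regions was nearly the same within a pair of lists and not between species. Over the 9 genes, Spearman's rho of region counts was 0.987 between control and HNF4G-KO and 0.949 between tumor and mets, where lists of a pair share most regions. Between control and tumor it was 0.0127 and between control and mets 0.0212. Per 100 kb these became 0.444 and 0.0586, while the values within a pair became 0.82 in HPAF-II and 0.783 in KPC cells.

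The 5 consensus sequences were searched in the 300 bp around each region center, on both strands. FOXA (TGTTTAC) was in 13 of 103 control regions (12.6%, 7.53 to 20.4), against 6.16% of all control regions, and in 9 of 103 mets regions (8.74%, 4.67 to 15.8), against 6.20%. In HNF4G-KO it was in 12.8%, against 6.14%, and in the tumor list in 11.0%, against 5.69%. These 4 lists share most of their regions within a pair, so they are not 4 independent counts, and no test was made. HNF4 (CAAAGTCCA) was in 1 control region (0.971%, against 0.999%) and 2 mets regions (1.94%, against 0.886%). KLF (GGGCGTGGC or GGGTGTGGC) was in 2 control regions (1.94%, against 2.16%) and 4 mets regions (3.88%, against 2.53%). AP-1 (TGACTCA) was in 21.4% of control regions, against 24.5%, and in 26.2% of mets regions, against 30.8%. The GATA family sequence AGATAAG was in 1.94%, against 3.87%, and in 0.971%, against 4.56%. A match of letters does not show that a factor was bound.

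At the rest of the family, 17 other KLF and SP genes, every share of regions in one list was somewhat below that of its whole list. Control-only regions were 34 of 155 (21.9%, interval 16.1 to 29.1), KO-only 8 of 131 (6.11%, 3.13 to 11.6), tumor-only 7 of 122 (5.74%, 2.81 to 11.4) and mets-only 23 of 147 (15.6%, 10.7 to 22.4). All 4 intervals included the share of the whole list. In HPAF-II the most regions in one list were at KLF12 (4 control-only of 12 and 3 KO-only of 12), KLF11 (5 of 14 and 0 of 8) and SP7, the osteoblast factor osterix (3 of 15 and 2 of 14). In KPC cells they were at Klf16 (1 tumor-only of 12 and 4 mets-only of 17) and Sp5, a target of Wnt signaling, which had 0 tumor regions and 4 mets regions. Klf11, Klf14 and Sp3 tied next with 3 each.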

How the data were processed

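ATAC–seq had been performed on 16 samples, 4 replicates in each of 4 groups, which were assigned from the sample titles. The study describes the Omni-ATAC protocol and paired-end sequencing for HPAF-II cells. The submitters' processing notes name Bowtie2 2.2.6, MACS2 2.1.1.20160309 and DiffBind, with no role or order. The study says that the HPAF-II data combine 4 replicates. How they were combined, and the ATAC–seq peak threshold, are not given in the sources used here. The deposited files were 4 BED lists, 1 per group, with a score per region made by the authors on an unstated scale. This deposited score was used only as a percentile rank within its own list. No region passed a chromosome end of hg38 (HPAF-II) or mm10 (KPC), builds that the notes name. Coordinates are 1-based.

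Genes came from GENCODE (human release 44, mouse vM21). Regions with 1 bp or more in common with the partner list counted as shared, and the partner was the longest overlap. The change in rank was the partner percentile minus its own, from the first list to the second. Promoter-proximal meant within 1 kb of a start site. Control regions were aligned to the mouse window with blastn 2.17.0 (e-value at most 1e-05), and alignments under 100 bp were not counted. Shares carry Wilson 95% intervals, and a count of 0 allows up to 3 counts. Overlap and percentile code was tested on simulated data (Python 3.11.15, pandas 2.3.3, pysam 0.24.0). No p-value was computed, because no list holds replicate values. No per-sample column was left unused.

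The genes, gene lists and consensus sequences were chosen with earlier results of these data known. By rule, the regions named were the highest over a start site of each gene, each region in one list at percentile 50 or more, and the 5 largest falls and 5 largest rises of each pair, and of other family genes the 3 per pair with the most regions in one list. Strong regions, aligned counterparts, the KLF5 upstream region, GC boxes and the sequences printed were chosen after their values were seen. Alternatives varied the overlap rule, score thresholds, list size, window size, the way ranks were paired, leaving out each gene and the span searched.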

Additional observations from a re-analysis of the deposited data

How the results depend on the processing

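No paired analysis was possible because each list stands for all replicates of its group, and for the same reason no replicate could be left out. With the lists cut to equal size, control-only regions were 12.8% of KLF-locus regions (15.1% of all) and mets-only regions 8.33% (14.0% of all), so those shares depend on list length. Counting regions within 500 bp as shared gave 4.40% tumor-only (7.09% of all). Comparing only the upper 50% of both lists with each other gave 0.0% (8.46% of all). In that setting a region whose partner lay in the lower 50% counted as tumor-only. Ranking among shared regions alone turned the median change from control to HNF4G-KO from -4.52 to 1.79 points, and that of all shared regions to 0.676, so its sign depends on the one-list regions in the ranking. A window of 10 kb gave 7.59 points from tumor to mets. Searching the whole region in place of 300 bp gave FOXA in 16.5% of mets regions (8.90% of all) and GATA in 6.80% (6.90% of all), so the low GATA share of mets regions was not seen at that span. The other 70 values, including those with each gene left out, stayed within the intervals of the values reported. The unknown read depth limits every count of weak regions.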
